A study of Mus musculus with 12 samples.

Results

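The small heat shock protein genes Hspb1, Hspb2, Hspb3, Hspb6, Hspb7, Hspb8 and Cryab, together with the cochaperone gene Bag3, were followed in murine cardiomyocytes exposed to IL-6 type cytokines. These 8 genes were taken by their symbols from a table of 22915 genes. No threshold on their values was used, but they were chosen with earlier results of these data known. Primary cardiomyocytes were isolated from adult male C57/Bl6 mice (12 weeks of age), a strain without any allele named in the sample descriptions, and kept for 24 h in normoxia. The cells received recombinant mLIF, the murine leukemia inhibitory factor, or mOSM, the murine oncostatin M, or hlOSM, a human-like form of the latter, or an equal volume of the solvent PBS. The proteins were given at 25 ng/ml by the sample descriptions, whereas the text of the study states a lower concentration. In mouse cells mLIF signals through the LIF receptor (LIFR) and mOSM through the OSM receptor (OSMR), while hlOSM is an mOSM whose AB loop was exchanged for the human sequence so that it engages both receptors. RNA-seq was done on 3 libraries per condition, 12 in all, and no source used here states whether these came from separate hearts or cell preparations, so that p-values measure the spread between libraries, which may be technical.

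Small heat shock proteins share an alpha-crystallin domain, assemble into dimers and larger oligomers, and hold unfolding proteins without using ATP until ATP-driven chaperones of the HSP70 family take them over. Heart and skeletal muscle express more members of this family than most tissues, and there they bind titin, desmin, filamins and actin. Bag3 links the small heat shock protein HSPB8 to HSP70 and passes damaged filamin and other Z-disc proteins to autophagy, a route called chaperone-assisted selective autophagy. Mutations in CRYAB and BAG3 are known causes of myofibrillar myopathy and cardiomyopathy.

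All 8 genes passed the filter on low values, which asked for 3 or more libraries with a value of 10 or more and left 13184 genes for testing. Values are normalized counts rounded to whole numbers, and limma was fitted to all 12 libraries at once on the scale log2(value + 1). A gene counted as a DEG when its p, two-sided and adjusted by Benjamini-Hochberg over all tested genes, was below 0.05. The totals of a library lay between 2745748 and 2911891 and are not numbers of sequenced reads, so the depth behind a value is unknown. In 6626 genes with a mean of at least 100, the libraries numbered 3 differed from those numbered 1, averaged over the conditions, by 0.042 on the log2 scale with an SD over genes of only 0.0019. The corresponding difference between numbers 2 and 1 was −0.0045 with an SD of 0.0017. For comparison, the median residual SD of a gene was 0.13. The deposited values thus hold practically no difference between replicate numbers that varies from gene to gene, and no source used here names a step that takes it out. Replicate number held 0.0168% of the variance within conditions once each library was centered, where 25% is the share without an effect. If such a step was taken before deposit, the fit without a block has 8 residual degrees of freedom where 6 are left, and its standard errors, intervals and p-values, which are those printed here, may be too small. Calls that are lost with the replicate number as a block are therefore given beside the result.

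Summed normalized counts of 8 cardiomyocyte markers (among them Myh6, Tnnt2 and Ryr2) ran from 15351 to 17024 in PBS, from 13058 to 14600 with mLIF, from 11932 to 14076 with mOSM and from 12455 to 12875 with hlOSM. Fibroblast markers summed to between 2296 and 2526 in PBS, between 2110 and 2251 with mLIF, between 2459 and 2885 with mOSM and between 2307 and 2540 with hlOSM. Of these 8 fibroblast markers, hlOSM raised 3 and lowered 5, beside 18.2% and 19.8% of all tested genes. The sum thus hides changes in both directions. Endothelial markers ran from 1188 to 1262 in PBS and from 1201 to 1266 with mLIF. They ran from 1471 to 1700 with mOSM and from 1477 to 1590 with hlOSM. Smooth muscle and pericyte markers lay between 617 and 828 in PBS and between 555 and 628 with mLIF. They lay between 318 and 386 with mOSM and between 315 and 335 with hlOSM. Leukocyte markers lay between 304 and 319 in PBS and between 283 and 324 with mLIF. They lay between 343 and 391 with mOSM and between 320 and 390 with hlOSM. No measured marker of the 5 lists was at 0 in all libraries of a condition, which holds for the cardiomyocyte markers that define the labelled cells as well as for those of the other cell types. In bulk RNA, fewer cells of a type and less RNA per cell cannot be told apart, and the part of these shifts in the results below was not tested.

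Hspb1, Hspb2 and Cryab were raised by every cytokine, whereas Hspb3, Hspb6, Hspb7, Hspb8 and Bag3 were not called in any comparison with PBS. The rise was largest in Hspb1, which went from a mean of 51.7 in PBS to 115 in mLIF-, 142 in mOSM- and 173 in hlOSM-treated cardiomyocytes. Thus 3 of the 8 genes were raised and 0 lowered in each comparison with PBS. Among all tested genes, mLIF raised 5.47%, mOSM 15.4% and hlOSM 18.2%. In the fit with replicate numbers as a block, mLIF raised 2 of the 8 genes, and both mOSM and hlOSM raised 3, beside 3.39%, 12.5% and 14.7% of all tested genes. The same PBS libraries entered all 3 comparisons, which are therefore not independent. For mLIF, mOSM and hlOSM, the median log2 fold change of the 8 genes was 0.03, 0.06 and 0.04, and that of all tested genes was 0.00037, −0.0043 and −0.0052.

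**Figure D1:**
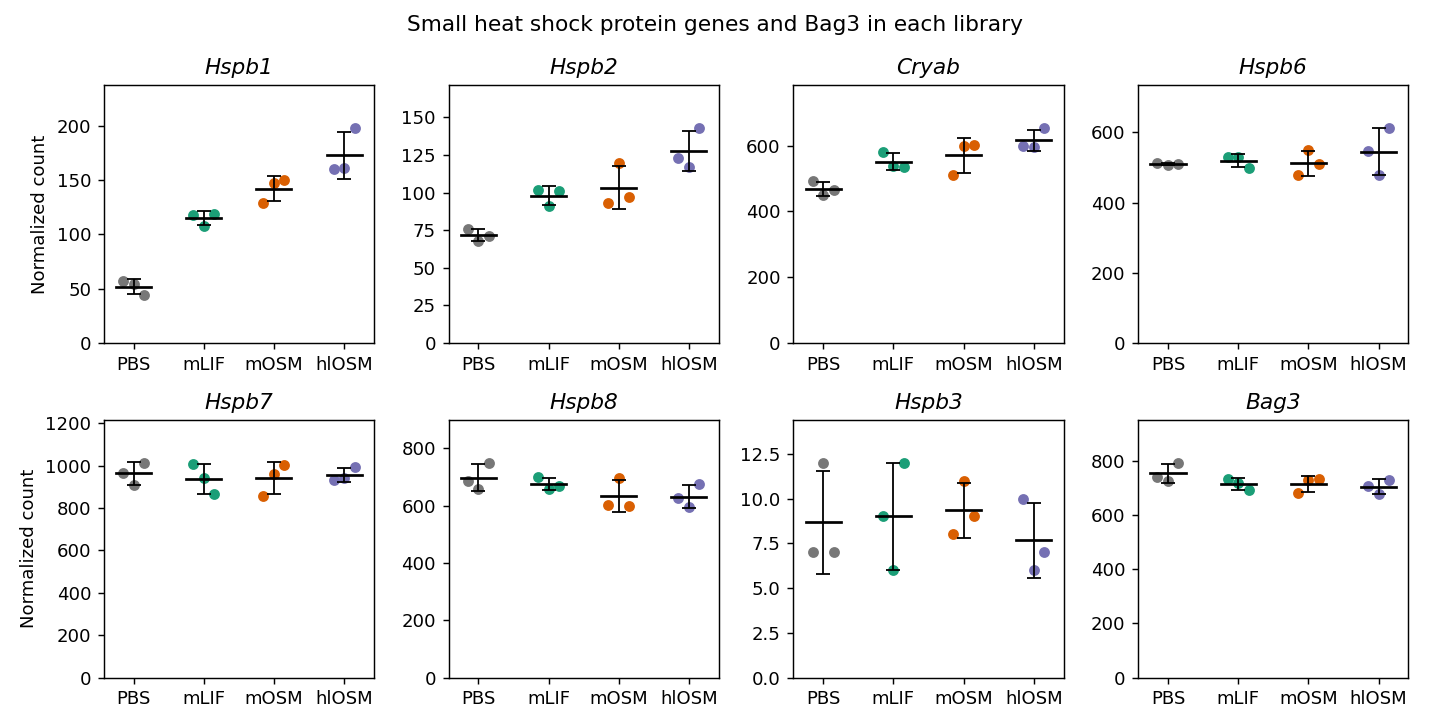
Normalized count (y axis, linear, from 0) of each of the 8 genes in PBS-, mLIF-, mOSM- and hlOSM-treated cardiomyocytes (x axis). Points are libraries, and the bar and whiskers are the mean and SD of 3 libraries. In Hspb1, Hspb2 and Cryab every cytokine library lies above every PBS library, and in the other 5 genes the libraries overlap.

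Hspb1 (ENSMUSG00000004951, chr5:135887919-135889563 on mm10, plus strand) encodes HSP27, a chaperone that binds and stabilizes actin filaments and is phosphorylated downstream of p38 signaling. Its normalized counts in the libraries numbered 1 to 3 were 57, 54 and 44 in PBS. They were 118, 108 and 119 with mLIF and 129, 147 and 150 with mOSM. With hlOSM they were 160, 161 and 198. The 4 conditions did not overlap in any pair, so that each hlOSM library was above each mOSM library, each of these above each mLIF library, and each of these above PBS. Against PBS the log2 fold change was 1.15 with mLIF (SE 0.11, limma adjusted p = 1.57e-06), 1.45 with mOSM (SE 0.11, adjusted p = 1.2e-09) and 1.73 with hlOSM (SE 0.11, adjusted p = 4.65e-11). On the scale of the normalized count plus 1 these are 2.21-fold (95% confidence interval 1.89 to 2.59), 2.73-fold (2.33 to 3.19) and 3.31-fold (2.83 to 3.86). The gene moved from percentile 35.3 of tested genes in PBS to percentile 64.3 with hlOSM.

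The RefSeq promoter window of Hspb1 (250 bases before to 50 after the start site, GRCm38.p6) is shown in part because heat shock proteins are textbook targets of heat shock factors, whose elements are built from inverted GAA units. A stretch from Hspb6, which was not called in any comparison, stands beside it. Capitals mark matches to GAANNTTC, whose letters read the same on both strands.
Hspb1, chr5:135887776-135887835, plus strand: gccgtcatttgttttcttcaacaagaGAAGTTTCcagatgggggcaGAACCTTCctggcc
Hspb6, chr7:30553155-30553214, plus strand: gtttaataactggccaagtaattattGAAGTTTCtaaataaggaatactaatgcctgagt
In Hspb1 the match GAAGTTTC begins 117 bases before the start site and the match GAACCTTC begins 97 bases before it. Hspb6 holds GAAGTTTC 120 bases before the later of its start sites. The same 8 letters begin 2 bases after the start site in Hspb8 and 42 bases after it in Bag3, and Hspb3 holds GAATTTTC 224 bases before its start site.

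RefSeq windows were matched for 6 of the 8 genes (all but Hspb2 and Cryab), 7 windows in all. GAANNTTC or the other arrangement, TTCNNGAA, was found in 5 of these 6 genes, all by the former, and in none of the letters of the Hspb7 window. Among 32851 windows of the table, 7.86% held GAANNTTC, 8.52% TTCNNGAA and 15.1% either of them. The 8 letters GAAGTTTC, a search added after the letters had been seen, occurred in 4 of the 6 genes and, on either strand, in 1.21% of all windows. A spacing recognized by STAT factors, TTCNNNGAA, was in 0 of the 7 windows and in 8.3% of all. Of the 5 genes with a heat shock arrangement only Hspb1 was called against PBS. Among all tested genes, 5.47%, 15.4% and 18.2% were raised with mLIF, mOSM and hlOSM. The other called genes, Hspb2 and Cryab, had no window, so calls and arrangements cannot be compared over the 8 genes. These matches are letters in a window and were not tested for binding.

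Hspb2 (ENSMUSG00000038086, chr9:50751078-50752354, minus strand) encodes a muscle protein that binds the myotonic dystrophy protein kinase and pairs with HSPB3. Normalized counts in the libraries numbered 1 to 3 were 76, 68 and 71 in PBS and 102, 91 and 101 with mLIF. Cells treated with mOSM had 93, 120 and 97, and those treated with hlOSM had 123, 117 and 143. Every cytokine library was above every PBS library, and the mLIF and mOSM libraries overlapped each other. The log2 fold change against PBS was 0.45 with mLIF (SE 0.11, limma adjusted p = 0.0114), 0.51 with mOSM (adjusted p = 0.000853) and 0.82 with hlOSM (adjusted p = 2.84e-06), or 1.36-, 1.43- and 1.77-fold. Without the mLIF library numbered 3, the adjusted p of the mLIF rise was 0.0584.

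Cryab (ENSMUSG00000032060, chr9:50751325-50756636, plus strand) encodes alpha-B-crystallin, the abundant small heat shock protein of heart and lens that binds desmin and titin. Normalized counts were 492, 450 and 466 in PBS and 582, 538 and 534 with mLIF. In mOSM-treated cells they were 510, 599 and 602, and in hlOSM-treated cells 599, 596 and 654. The PBS libraries lay below all others, while those of the cytokines overlapped in part. Its log2 fold changes were the smallest of the called genes at 0.23 with mLIF (SE 0.07, limma adjusted p = 0.0292), 0.28 with mOSM (adjusted p = 0.00267) and 0.39 with hlOSM (adjusted p = 6.87e-05), or 1.17-, 1.21- and 1.31-fold. The mLIF call was lost with the replicate number as a block (adjusted p = 0.0547) and when PBS 2, PBS 3, mLIF 1, mLIF 2 or mLIF 3 was left out, with adjusted p = 0.107, 0.0855, 0.131, 0.057 and 0.0645. The mOSM and hlOSM calls were kept in each of these fits.

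Hspb1, Hspb2 and Cryab also had no overlap with PBS in any cytokine. Among all tested genes, the libraries lay without overlap above PBS in 14.7% (mLIF), 20.2% (mOSM) and 22.7% (hlOSM).

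**Figure D2:**
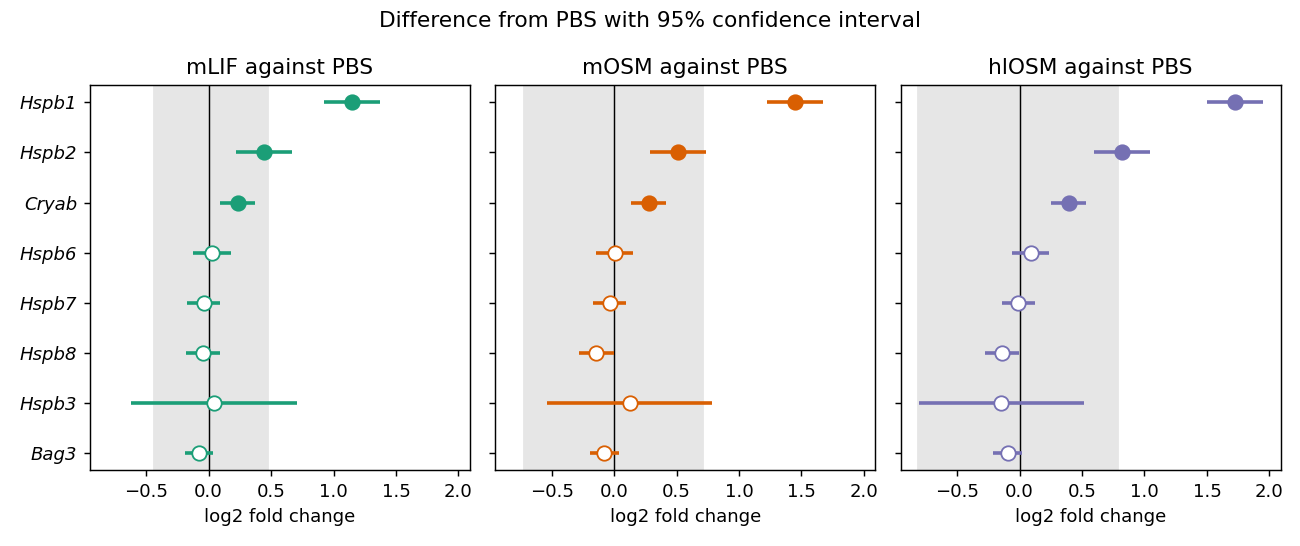
Log2 fold change against PBS (x axis) of each gene (y axis) in mLIF-, mOSM- and hlOSM-treated cardiomyocytes, with the 95% confidence interval. Filled points passed an adjusted p under 0.05, open points did not, and the grey band holds the central 90% of all tested genes (the 5th to 95th percentile, from −0.44 to 0.48 with mLIF and from −0.81 to 0.79 with hlOSM). Hspb1 lies above the band with each cytokine, Hspb2 just above its edge with hlOSM only, and Cryab inside it throughout.

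Hspb2 and Cryab are neighbors on chromosome 9, transcribed away from each other, and the start sites of their reference transcripts Hspb2-201 and Cryab-201 lie 614 bases apart. A longer Cryab transcript, Cryab-206, begins inside Hspb2 and shares 252 exonic bases with it on the opposite strand, which is 30.2% of the exonic bases of Hspb2 and 17.0% of those of Cryab. Reads on more than 1 gene were left out by the authors, and whether their counting used the strand of the stranded library kit is not given in the sources used here. Within this stretch the genes can only be told apart by strand. The ratio of Hspb2 to Cryab normalized counts was 0.153 ± 0.0017 (SD, n = 3) in PBS and 0.207 ± 0.011 (SD, n = 3) with hlOSM. It ran from 0.151 to 0.154 in PBS and from 0.196 to 0.219 with hlOSM without overlap, so that Hspb2 and Cryab did not move by the same factor. Hspb1 moved away from Cryab further, from a ratio of 0.110 ± 0.014 (SD, n = 3) in PBS to 0.280 ± 0.020 (SD, n = 3) with hlOSM.

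**Figure D3:**
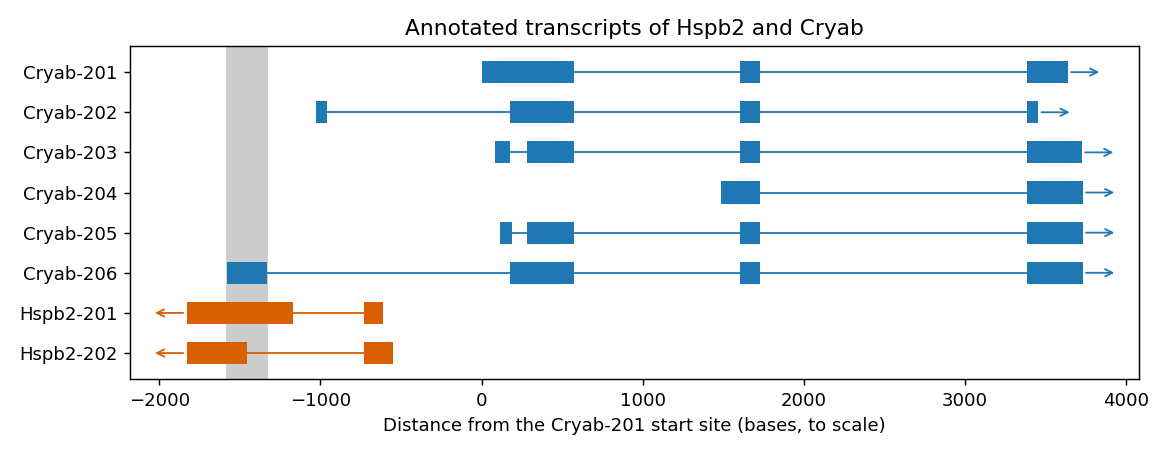
Exons (boxes) and introns (lines) of the annotated transcripts of Hspb2 (orange) and Cryab (blue), drawn to scale by their distance in bases from the Cryab-201 start site (x axis), with arrows in the direction of transcription. The grey band spans the 252 exonic bases that the genes share on opposite strands, which come from the first exon of Cryab-206.

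Hspb8 and Bag3 form the chaperone pair of chaperone-assisted selective autophagy. For Hspb8 (ENSMUSG00000041548, chr5:116408491-116422864, minus strand), normalized counts were 685, 657 and 750 in PBS and 699, 657 and 669 with mLIF. They were 603, 697 and 598 with mOSM, while hlOSM-treated cells had 626, 594 and 675. The libraries of each cytokine overlapped those of PBS. The log2 fold change was −0.05 with mLIF (limma adjusted p = 0.716), −0.14 with mOSM (adjusted p = 0.112) and −0.14 with hlOSM (adjusted p = 0.097). The 95% confidence interval of the last reached from −0.28 to −0.0041, which excludes 0 before adjustment for the number of genes. Hspb8 passed the threshold without the mOSM library numbered 2 (log2 fold change −0.21, adjusted p = 0.0223, mOSM against PBS) and without the hlOSM library numbered 3 (−0.19, adjusted p = 0.0423, hlOSM against PBS).

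Bag3 (ENSMUSG00000030847, chr7:128523616-128546981, plus strand) encodes the scaffold that binds HSPB8 through short hydrophobic motifs and HSP70 through its BAG domain. Normalized counts were 739, 726 and 792 in PBS and 733, 717 and 691 with mLIF. They were 679, 730 and 731 with mOSM, while hlOSM-treated cells had 707, 676 and 729. Libraries of every cytokine overlapped those of PBS. Its log2 fold change was −0.08 with mLIF (limma adjusted p = 0.406), −0.08 with mOSM (adjusted p = 0.311) and −0.10 with hlOSM (adjusted p = 0.178). The 95% confidence interval with hlOSM was −0.21 to 0.02. The ratio of Bag3 to Hspb8 normalized counts was 1.08 ± 0.025 (SD, n = 3) in PBS and 1.12 ± 0.031 (SD, n = 3) with hlOSM, and both ranges overlapped.

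Hspb6 (ENSMUSG00000036854, chr7:30552178-30555443, plus strand) encodes HSP20, a partner of HSPB1 and target of protein kinase A that relaxes smooth muscle and limits apoptosis in cardiomyocytes. Normalized counts were 513, 506 and 511 in PBS and 531, 529 and 499 with mLIF. They were 478, 549 and 510 with mOSM, while hlOSM-treated cells had 546, 478 and 613. The largest log2 fold change was 0.09 with hlOSM (limma adjusted p = 0.345), where the libraries spread to both sides of PBS. Of its exonic bases 5.44% lie opposite exons of Proser3 and Lin37, and 77 bases are shared on the same strand with the microRNA gene Gm38670.

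Hspb7 (ENSMUSG00000006221, chr4:141420779-141425311, plus strand) encodes the cardiovascular heat shock protein, which binds filamin C and is needed for sarcomere assembly. With normalized counts between 859 and 1014 in all 12 libraries it stayed between percentiles 96.7 and 97.0 of tested genes. Its log2 fold changes against PBS were −0.04, −0.04 and −0.0092, with limma adjusted p-values between 0.718 and 0.926, and the sign turned under other scalings. Leaving aside Hspb3, the 95% confidence intervals of the uncalled genes against PBS lay between −0.28 and 0.24 on the log2 scale over all 3 cytokines.

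Hspb3 (ENSMUSG00000051456, chr13:113662896-113663676, minus strand) is a single-exon gene for the muscle partner of HSPB2, and mutations of it are known in motor neuropathy. Its normalized counts of 6 to 12 put it at percentile 3.60 of tested genes in PBS. Means were 8.67 ± 2.89 in PBS, 9 ± 3 with mLIF, 9.33 ± 1.53 with mOSM and 7.67 ± 2.08 with hlOSM (SD, n = 3 each). A confidence interval from −0.81 to 0.52 on the log2 scale with hlOSM shows that changes of moderate size could not be detected at this level.

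To compare levels between genes, normalized counts were divided by the kilobases of annotated exon. This length joins the exons of all annotated transcripts of a gene, which gives 1479 bases over 6 transcripts for Cryab. For Hspb7 it is 2769 bases from 1 transcript. Which transcripts the cells expressed was not measured, so the order of the genes depends on this choice of length. On this per-kilobase scale, levels in PBS ran from 358 for Hspb8 and 348 for Hspb7 over 317 for Cryab, 294 for Bag3 and 222 for Hspb6 to 85.9 for Hspb2, 50.1 for Hspb1 and 11.1 for Hspb3. The libraries of Hspb8 and Hspb7, of Hspb7 and Cryab and of Cryab and Bag3 overlapped in PBS, so that the order of these neighbors did not exceed the spread, and the lower ranks were separate. Cryab had the highest per-kilobase level of the 8 genes in mLIF- (373), mOSM- (386) and hlOSM-treated cells (417). Its libraries overlapped those of Hspb7 with mLIF, those of Hspb7 and Hspb8 with mOSM, and those of no other gene with hlOSM.

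Hspb1 reached 112, 138 and 168 on the per-kilobase scale with mLIF, mOSM and hlOSM, beside 118, 124 and 153 for Hspb2. The libraries of these genes were separate in PBS and overlapped with each cytokine. The share of Hspb1 in the summed per-kilobase level of the 8 genes rose from 2.97% in PBS to 8.70% with hlOSM. In normalized counts, the 8 genes together held 0.123% ± 0.0028 (SD, n = 3) of a library in PBS and 0.134% ± 0.0052 (SD, n = 3) with hlOSM.

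**Figure D4:**
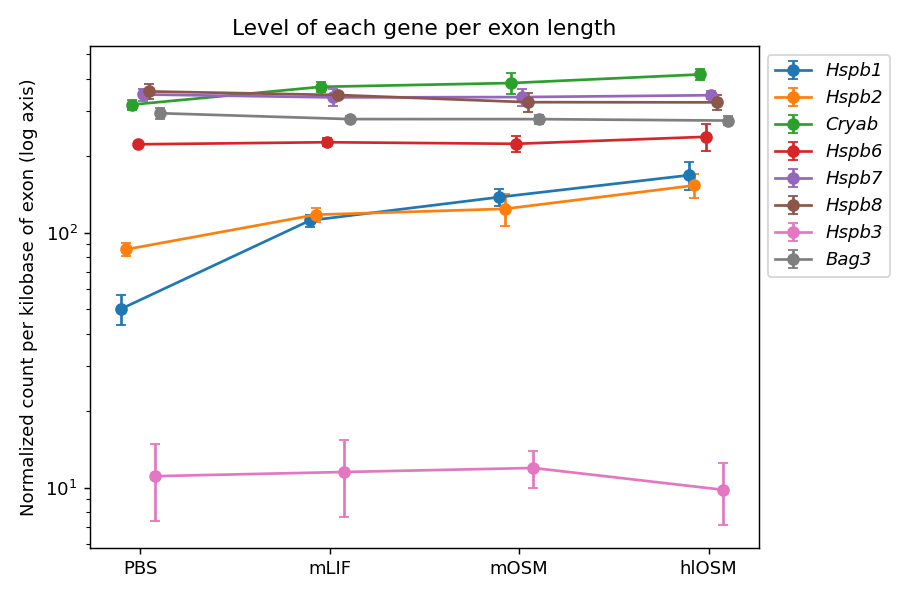
Mean normalized count per kilobase of annotated exon (y axis, log scale) of each gene in PBS and with each cytokine (x axis), with the SD of 3 libraries. Lines connect the means of a gene to make it easier to follow and do not stand for a course in time. Hspb1 starts below Hspb2 at 50.1 and meets it with each cytokine, Cryab moves to the top, and Hspb3 stays near 10. The order of the genes depends on the exon length used, which joins all annotated transcripts.

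The comparison of the cytokines asks whether the dual LIFR and OSMR agonist differs from the agonists of a single receptor. Against mLIF, hlOSM raised 2 of the 8 genes, with 7.42% of all tested genes raised and 9.22% lowered. Hspb1 was higher by 0.58 on the log2 scale (SE 0.11, limma adjusted p = 0.000544), or 1.49-fold. Hspb2 was higher by 0.37 (SE 0.11, adjusted p = 0.0187), or 1.30-fold, a call that was lost without the mLIF library numbered 2 (adjusted p = 0.0979) or the hlOSM library numbered 3 (adjusted p = 0.105). Cryab differed by 0.16 (adjusted p = 0.108, 95% confidence interval 0.02 to 0.30). In Hspb1, Hspb2 and Cryab the hlOSM libraries were all above the mLIF libraries, as in 14.6% of tested genes.

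Between mOSM and mLIF, 0 of the 8 genes were called by limma, beside 6.05% of all tested genes raised and 5.76% lowered. The Hspb1 libraries did not overlap, as in 12.9% of tested genes higher with mOSM, and the log2 difference was 0.30 (95% confidence interval 0.08 to 0.53, adjusted p = 0.0782). In a fit of only the 6 libraries compared it was called (adjusted p = 0.0302), and likewise without the PBS library numbered 3 (adjusted p = 0.0414). Hspb2 differed by 0.07 (−0.16 to 0.29) and Cryab by 0.05 (−0.09 to 0.18).

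Between hlOSM and mOSM, 0 of the 8 genes were called by limma, and Hspb1 and Hspb2 were the 2 genes with an unadjusted p under 0.05. In this comparison 0% of all tested genes were raised and 0.106% lowered, while 7.49% had an unadjusted p under 0.05. The log2 difference was 0.28 in Hspb1 (95% confidence interval 0.05 to 0.50, adjusted p = 0.526) and 0.31 in Hspb2 (0.08 to 0.53, adjusted p = 0.472). The 3 hlOSM libraries of Hspb1 were all above the mOSM libraries, as seen in 4.12% of tested genes. For Cryab the difference was 0.11 (−0.02 to 0.25, adjusted p = 0.72).

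In an overall F test across the 4 conditions, Hspb1 (limma adjusted p = 1.57e-10), Hspb2 (2.82e-05) and Cryab (0.000522) passed, as did 34.2% of tested genes. The adjusted p-values of the other 5 genes were 0.199 for Hspb8, 0.457 for Bag3, 0.682 for Hspb6, 0.896 for Hspb3 and 0.93 for Hspb7. A further contrast asked whether hlOSM differed from mOSM by the same log2 amount as mLIF from PBS. Since hlOSM is a separate ligand and no condition combined mLIF with mOSM, it cannot show whether the receptor effects add up. In Hspb1 the mLIF and mOSM effects summed to 2.59, against a measured hlOSM effect of 1.73. The contrast was −0.87 (SE 0.15, 95% confidence interval −1.19 to −0.55, limma adjusted p = 0.0166), beside 0.167% of tested genes called. The call was lost without mLIF 1 (adjusted p = 0.0532), mLIF 3 (0.0884), hlOSM 1 (0.0888) or hlOSM 2 (0.0729). For the other 7 genes the adjusted p of this contrast lay between 0.664 and 0.897.

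The remaining genes of the pathway were taken from lists of chaperones, cochaperones, autophagy genes and filament genes. The counts of each list below stand beside the following shares of all tested genes. For mLIF, mOSM and hlOSM, 5.47%, 15.4% and 18.2% were raised and 4.44%, 15.8% and 19.8% lowered. Under the block, 3.39%, 12.5% and 14.7% were raised and 2.56%, 12.8% and 16.5% lowered. Of the further genes listed with the small heat shock proteins (Cryaa, Hspb9, Odf1 and Hspb11), only Hspb11 had a row of that symbol. No protein sequence was examined, so whether its product has the alpha-crystallin domain was not tested. Normalized counts of Hspb11 were low, from 17 to 25 in PBS and from 26 to 34 with hlOSM. It had a log2 fold change of 0.28 with mLIF (limma adjusted p = 0.376), 0.11 with mOSM (0.718) and 0.56 with hlOSM (0.0264, and 0.0713 with the replicate block).

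Of the 5 other BAG family genes, 2 were raised and 0 lowered with each cytokine. These were Bag4, known as a silencer of death receptor signaling, and Bag2, an inhibitor of the ubiquitin ligase CHIP. Bag4 went from 91.3 ± 11.2 in PBS to 123 ± 16.9 in mLIF-, 203 ± 40.6 in mOSM- and 205 ± 21.7 in hlOSM-treated cells (SD, n = 3 each). The log2 fold change of Bag4 was 0.42 with mLIF (limma adjusted p = 0.0361, and 0.0591 with the replicate block), 1.13 with mOSM (3.66e-07) and 1.16 with hlOSM (1.97e-07). For Bag2 it was 0.25, 0.27 and 0.36, with adjusted p-values of 0.0111, 0.00166 and 6.71e-05. Bag1, Bag5 and Bag6 were not called, and the median of the list lay at −0.11, −0.07 and −0.10 for mLIF, mOSM and hlOSM. The median and the calls of this list thus differ in sign.

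The heat shock factor list had 5 genes, of which 4 were tested. With mOSM 1 of them was raised, Hsf1, the master regulator of the heat shock response (log2 fold change 0.30, limma adjusted p = 0.0284, and 0.06 with the replicate block). With mLIF and hlOSM 0 genes of this list were called, and Hsf1 differed by 0.26 (adjusted p = 0.104) and 0.21 (adjusted p = 0.107).

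Of 12 heat-inducible chaperone genes, 0 were raised with any cytokine. With mLIF 0 were lowered, and mOSM as well as hlOSM lowered 3. Under the block 2 and 1 were lowered. Lowered genes made up 4.44%, 15.8% and 19.8% of all tested genes for mLIF, mOSM and hlOSM, and 2.56%, 12.8% and 16.5% under the block. Hspa1b, an inducible HSP70 gene, had a log2 fold change of −0.60 with mOSM (limma adjusted p = 0.00912) and −0.91 with hlOSM (adjusted p = 0.000182), from a normalized count of 40.7 in PBS to 21.3 with hlOSM. Its near-identical copy Hspa1a differed by −0.44 with mOSM (adjusted p = 0.0756) and −0.32 with hlOSM (adjusted p = 0.184), and reads that align to several places were left out by the authors, so that both values rest on the letters in which the copies differ and are uncertain. The HSP110 gene Hsph1 had values of −0.18 and −0.19 (adjusted p = 0.045 and 0.0291, and 0.0756 and 0.0509 with the block), and Dnajb4, an HSP40 cochaperone of muscle, −0.16 and −0.14 (adjusted p = 0.0217 and 0.0449, the latter 0.0845 with the block). Dnajb1, Hsp90aa1 and Hspa8, which encode an inducible HSP40, the inducible HSP90 and the constitutive HSP70, were not called with any cytokine. The median of the 12 genes was −0.07, −0.07 and −0.09 in the same order.

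Of 23 other cytosolic chaperone and cochaperone genes, mLIF raised 1 and lowered 3, and mOSM and hlOSM each raised 2 and lowered 7. Under the block, mLIF raised 1 and lowered 1, mOSM 1 and 7, and hlOSM 1 and 6. Hspa1l, an HSP70 gene best known from testis, rose with mLIF, mOSM and hlOSM by log2 values of 0.91, 0.95 and 1.37 (limma adjusted p = 0.00203, 0.000208 and 1.67e-06) at low normalized counts of 17.0 in PBS and 46.0 with hlOSM. Hspa12a, a distant HSP70 relative, differed by −0.91, −1.38 and −1.99 (adjusted p = 0.0103, 3.84e-05 and 2.2e-07). Its normalized counts were low as well, at 54.3 in PBS and 13.0 with hlOSM, the latter close to the filter at 10. Fkbp4, an HSP90 cochaperone, had log2 fold changes of −0.23, −0.24 and −0.24 (adjusted p = 0.0213, 0.0044 and 0.00399, the first 0.0536 with the block). Dnaja4, an HSP40 cochaperone, had a log2 fold change of −0.33 with mOSM and −0.42 with hlOSM (adjusted p = 0.000137 and 5.27e-06), and Unc45b, the myosin chaperone of muscle, −0.31 and −0.44 (adjusted p = 0.00246 and 4.71e-05). The median of this list was −0.13, −0.10 and −0.10.

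Among 17 partners of chaperone-assisted selective autophagy, mLIF raised 1 and lowered 1, mOSM raised 3 and lowered 1, and hlOSM raised 5 and lowered 2. With the block these numbers were 0 and 0, 2 and 1, and 3 and 1. Synpo2, whose product myopodin brings the Bag3 complex to Vps16 and Vps18 for membrane fusion, fell from a normalized count of 481 ± 62.9 in PBS to 328 ± 39.0 with mOSM and 277 ± 25.5 with hlOSM (SD, n = 3 each). Its log2 fold change was −0.30 with mLIF (limma adjusted p = 0.0485, and 0.0712 with the block), −0.55 with mOSM (0.000106) and −0.79 with hlOSM (7.27e-07). Vps18 itself was the gene raised with mLIF (0.28, adjusted p = 0.0341, and 0.0848 with the block), and it differed by 0.16 with mOSM (adjusted p = 0.14) and 0.09 with hlOSM (adjusted p = 0.409). Stx7, a syntaxin of late endosomes, rose by 0.35 with mOSM and by 0.40 with hlOSM (adjusted p = 0.000217 and 3.15e-05), and Synpo, the synaptopodin gene, by 0.33 and 0.23 (adjusted p = 0.00065 and 0.00793). Stub1, which encodes the ubiquitin ligase CHIP, Sqstm1, which encodes the autophagy receptor p62, and Hspa8 were not called with any cytokine. The median of the list was 0.04, 0.08 and 0.04.

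A list of 13 filament and Z-disc genes was drawn up as possible clients or partners of the chaperones, and binding of their products was not tested. Of these genes, 0 were raised and 3 lowered with mLIF, and 2 were raised and 8 lowered with mOSM and with hlOSM alike. With the block, 1 rather than 2 were raised with hlOSM and the numbers lowered were 3, 8 and 8. Without the block, the shares of all tested genes raised were 5.47%, 15.4% and 18.2% for mLIF, mOSM and hlOSM. Those lowered were 4.44%, 15.8% and 19.8%. Ldb3, the gene of the Z-disc protein cypher, fell from 1186 ± 95.1 in PBS to 580 ± 27.2 with hlOSM (SD, n = 3 each), a log2 fold change of −1.03 (limma adjusted p = 8.14e-12). Nebl, which encodes the thin filament protein nebulette, had values of −0.46, −0.66 and −0.84 (adjusted p = 4.91e-05, 1.22e-08 and 1.72e-10), and the giant sarcomere gene Ttn −0.20, −0.52 and −0.48 (adjusted p = 0.0234, 1.3e-07 and 3.03e-07). Flnc, the filamin of striated muscle, rose by 0.16 with mOSM (adjusted p = 0.0225) and by 0.14 with hlOSM (adjusted p = 0.0373, and 0.0541 with the block). Flna, the filamin of non-muscle and smooth muscle cells, fell by 0.55 with mOSM (adjusted p = 4.7e-07) and by 0.62 with hlOSM (adjusted p = 6.28e-08), and differed by −0.18 with mLIF (adjusted p = 0.0733). Des, the desmin gene, was not called with any cytokine. Beside this list, hlOSM lowered 6 of 8 cardiomyocyte markers and 5 of 6 tested smooth muscle and pericyte markers, lowered 5 and raised 3 of 8 fibroblast markers, and raised 6 of 8 endothelial markers. The part of these shifts in the values of the list, which holds genes of non-muscle cells such as Vim and Flna, was not tested. The median of this list was −0.13, −0.25 and −0.27 for mLIF, mOSM and hlOSM.

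**Figure D5:**
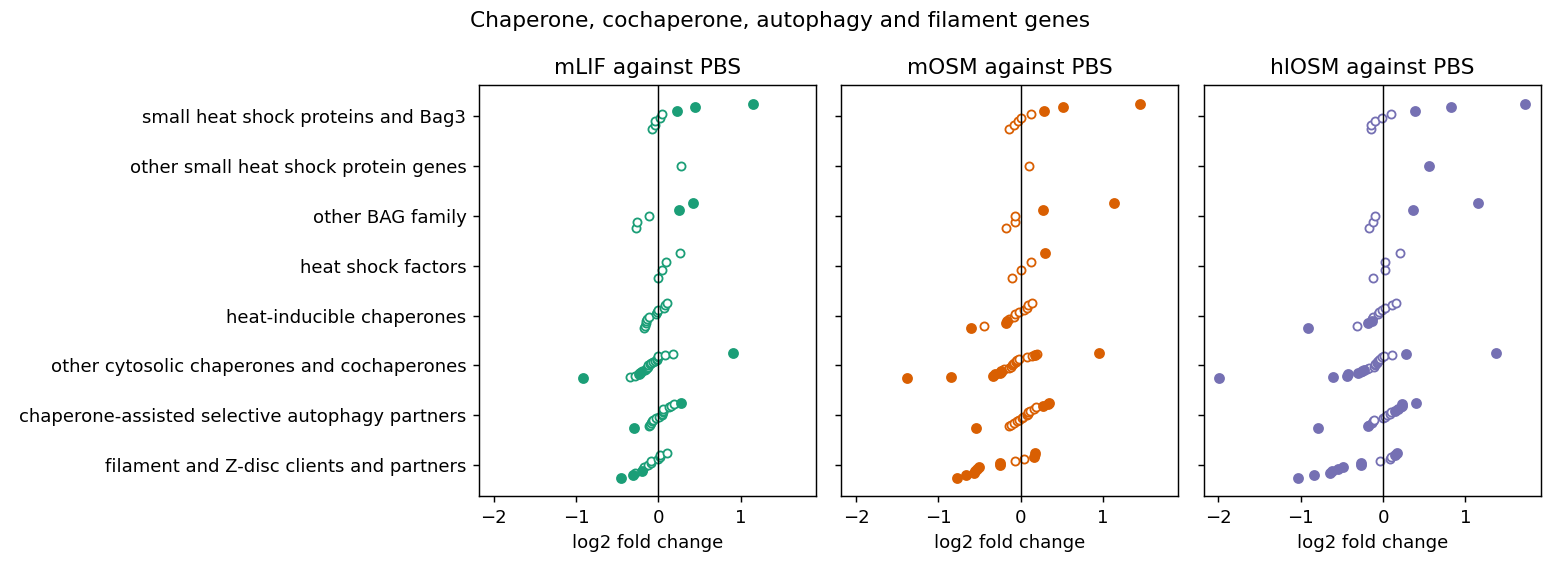
Log2 fold change against PBS (x axis) of each tested gene in the 8 genes followed here and in 7 related lists (y axis), for mLIF, mOSM and hlOSM. Filled points passed an adjusted p under 0.05, and points within a list are stacked by value. The largest rise in the top row is Hspb1, heat-inducible chaperones hold filled points only on the left, and most filled points of the filament and Z-disc list lie on the left with mOSM and hlOSM.

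For each gene past the threshold in the F test, the 3 genes of most similar pattern were looked up among 8670 tested genes whose mean over the libraries was 50 or more. Likeness was the root mean square difference of the 4 condition means on the log2 scale after centering each gene. Closest to Hspb1 were Ahr at 0.026, Serpinb1a at 0.033 and Gm13889 at 0.060. The aryl hydrocarbon receptor gene Ahr had log2 fold changes of 1.11, 1.40 and 1.65 for mLIF, mOSM and hlOSM. Closest to Hspb2 were Dtna, the gene of the dystrophin partner alpha-dystrobrevin, at 0.025, Cdr2 at 0.035 and Shisa5 at 0.044. For Cryab they were Slc35a4 at 0.0072, Nup93, which encodes a nuclear pore protein, at 0.0097 and Susd6 at 0.011. Between the called genes themselves the same measure was 0.15 for Hspb2 and Cryab, 0.38 for Hspb1 and Hspb2 and 0.52 for Hspb1 and Cryab.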

How the data were processed

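RNA of cultured cardiomyocytes was sequenced in 12 libraries (3 per condition), with condition and replicate number read from each sample's title. By the submitters' processing notes, FastQC, STAR 2.7.7a and featureCounts 1.6.5 (Subread) were used with mm10. The authors trimmed the reads, left out those on several genes or aligned to several places, normalized the counts and deposited them as whole numbers, so that the deposited values are scores on a normalized count scale and not read counts. The normalization and the strand setting are not given in the sources used here, and models of read counts were not used. Of 22915 gene identifiers, 22876 were in GENCODE M21, and all 8 genes followed here had the same coordinates there and in the table.

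Differences were tested with limma 3.58.1 in R 4.3.3 (lmFit, eBayes with trend) on log2(value + 1) over 13184 genes, with all libraries in a single fit. The smallest exact p of 3 libraries against 3 is 0.1, so tests of single genes rest on the shared spread. Promoter windows were read from RefSeq (GRCm38.p6) and searched in Python 3.11.15 on both strands. The genes followed here and all lists were chosen with earlier results of these data known. All members were named, and from each list up to 3 of the genes with the smallest adjusted p per cytokine among those called. Beside these stand a fixed set of HSP70, cochaperone and filament genes and further genes named to describe a list, among them Unc45b. Results were recomputed with pseudocounts of 0.1 and 5, without the filter or with a minimum of 50, after trimmed-mean or quantile rescaling, on only the libraries compared, with a replicate block, at an adjusted p under 0.01, and without each library in turn. Same-number pairs of libraries from different conditions had correlations of their deviations between −0.52 and 0.022 (18 pairs). Because the values hold almost no effect of the replicate number, such correlations tend to be negative by construction and cannot show whether the numbers pair the libraries. No source used here says that they do, so the block was kept as an alternative.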

Additional observations from a re-analysis of the deposited data

Results flagged for a closer look

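In Hspb1 the difference between hlOSM and mOSM was smaller than that between mLIF and PBS, by −0.87 on the log2 scale (SE 0.15, limma adjusted p = 0.0166, and 0.0373 with the replicate block), which a test of the difference itself brought out. The values behind it were log2 differences of 0.28 between hlOSM and mOSM and of 1.15 between mLIF and PBS. When each library was left out in turn, the call was kept in 8 of 12 fits and the value ran from −0.97 to −0.76. It was lost without mLIF 1 (adjusted p = 0.0532), mLIF 3 (0.0884), hlOSM 1 (0.0888) or hlOSM 2 (0.0729). Among all tested genes, 0.167% were called in this contrast and 11.5% had an unadjusted p under 0.05.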

How the results depend on the processing

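Of 220 alternatives to the 11 called log2 fold changes of the 8 genes, 211 kept the call and its direction, 9 lost the call and 0 reversed. The tally includes fits without a library outside the comparison, which leave the estimate unchanged. It does not include the stricter threshold of 0.01. There, Hspb2 and Cryab with mLIF (limma adjusted p = 0.0114 and 0.0292) and Hspb2 between hlOSM and mLIF (0.0187) were not called. The Hspb1 rise with each cytokine and the Hspb2 and Cryab rises with mOSM and hlOSM passed the threshold under every alternative run. For the mLIF rise of Cryab, 14 of 20 alternatives kept the call. It was lost with the replicate number as a block (log2 fold change 0.23, limma adjusted p = 0.0547) and in 5 of 12 fits without a library. All 5 left out a PBS or mLIF library, and of such fits only that without PBS 1 kept the call. The remaining fits left out an mOSM or hlOSM library, which cannot move this estimate. The call was therefore not stable. The block changed no other call of the 8 genes. Of 734 alternatives to the 37 uncalled values, 687 stayed uncalled in the same direction, 43 changed direction and 4 gained a call. No gene-level depth was known, and the filter at 50 gave no value for Hspb3.

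The number of genes raised with mLIF was between 1 and 3 when a library was left out (1 without mLIF replicate 3) and 1 at an adjusted p under 0.01. The number lowered was between 0 and 1 with mOSM (1, Hspb8, without mOSM replicate 2) and between 0 and 1 with hlOSM (1, Hspb8, without hlOSM replicate 3). Between mOSM and mLIF it was 0 to 1 raised (1, Hspb1, without PBS replicate 3) and 1 in the fit of only the 6 libraries. Between hlOSM and mLIF it was 1 to 2 raised (1 without mLIF replicate 2 or hlOSM replicate 3) and 1 at an adjusted p under 0.01.

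Directions of uncalled values near 0 turned with scaling. Quantile normalization gave −0.026 for Hspb3 with mLIF, and 0.0081, 0.015 and 0.050 for Hspb7 with mLIF, mOSM and hlOSM, where trimmed-mean rescaling gave 0.0028 with hlOSM. Against mLIF, mOSM differed in Bag3 by 0.0050 (trimmed mean) and 0.0011 (quantile). Against mOSM, hlOSM differed in Hspb8 by 0.00059 (trimmed mean) and 0.0049 (quantile). With each library left out in turn, the log2 fold change with mLIF ran from −0.17 to 0.28 in Hspb3, −0.094 to 0.017 in Hspb7 and −0.087 to 0.0084 in Hspb8. With mOSM it ran from −0.047 to 0.053 in Hspb6 and −0.084 to 0.029 in Hspb7, and with hlOSM from −0.33 to 0.089 in Hspb3 and −0.050 to 0.029 in Hspb7. Between mOSM and mLIF it ran from −0.043 to 0.14 in Hspb2, −0.15 to 0.29 in Hspb3, −0.073 to 0.027 in Hspb6, −0.053 to 0.069 in Hspb7 and −0.024 to 0.034 in Bag3. Between hlOSM and mLIF it ran from −0.42 to 0.024 in Hspb3, −0.024 to 0.16 in Hspb6, −0.026 to 0.085 in Hspb7 and −0.045 to 0.0090 in Bag3. Between hlOSM and mOSM it ran from −0.0018 to 0.18 in Hspb6, −0.038 to 0.075 in Hspb7, −0.049 to 0.071 in Hspb8 and −0.054 to 0.010 in Bag3. The difference between hlOSM and mOSM less that between mLIF and PBS ran from −0.97 to −0.76 in Hspb1, −0.028 to 0.15 in Hspb6 and −0.0090 to 0.12 in Hspb8. Apart from the settings that test fewer libraries or a stricter threshold by construction, the cause was not tested.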
